A study of Mus musculus with 54 samples.

Results

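Gkn1, Gkn2 and Muc5b encode secreted proteins of mucous epithelia. They were chosen by Ensembl ID from the 47729 genes counted in mouse cXEN cells because their reads were lost in FoxA2 mutants and rose when Sox17 was degraded. All 3 were found and all 3 were among the 14625 that passed the filter on low counts. Muc5b reached 1 CPM (counts per 1000000 gene reads, after TMM scaling between libraries) only in the Sox17 degradation groups from 24 h on, so it passed through the condition that chose it.

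cXEN cells are cultured stem cells of the extraembryonic endoderm, the lineage that gives rise to the yolk sac. The series profiled RNA in 40 libraries, in 20 groups of 2, to follow loss of the transcription factors Gata6, Sox17 and FoxA2 and stimulation with BMP4. In a Gata6-FKBP line and a Sox17-FKBP line, the tagged factor was degraded with 500 nM dTAGV1 for 6, 24, 48, 72 or 96 h, and the 0 h cells received DMSO. FoxA2-/- versions of both lines were sampled at 0 h in DMSO and at 48 h of dTAGV1. Untagged parental cXEN cells formed another group. These cells grew with 15% FBS. A BMP4 series, labelled with the Gata6-FKBP genotype, began in N2B27 medium with 1% FBS at 0 h and then received 25 ng/ml BMP4 in serum-free N2B27 for 24 or 72 h. In the degradation and mutation comparisons, control and test cells both carry the tag. The titles of the BMP4 series name XEN cells and no tag, so its genotype rests on that 1 label. The number of clones behind each line and the kind of FoxA2 lesion are not given in the sources used here.

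Gastrokines are small proteins with a BRICHOS domain that surface mucous cells of the stomach secrete in quantity. Gkn2 is known in humans to form a disulfide-linked partnership with Tff1, a trefoil peptide of gastric mucus. Muc5b is a gel-forming mucin, a very large glycoprotein that gives airway and salivary mucus its texture. FoxA2 is a forkhead factor that can open chromatin in endoderm, Sox17 is a Sox-family factor that maintains endoderm, and Gata6 is a GATA-family factor that specifies primitive endoderm.

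Libraries held 16.2 to 42.5 M gene reads, with 3.99 to 10.4 reads outside genes per 100 gene reads. All 18 listed genes of primitive endoderm and XEN cells passed the filter, and group means of Gata4 ran from 545 to 1077 CPM. Of 12 fibroblast genes, 9 passed. Their summed level, led by the collagen genes Col1a1 and Col1a2, was 1581 and 2084 CPM in the parental libraries and 5.71 to 12.2 CPM in all others. Foxa2 RNA did not separate the mutants from the rest: it averaged 112 CPM (Gata6-FKBP) and 88.0 CPM (Sox17-FKBP) in the mutants at 0 h, against 124 and 120.2 CPM in the unmutated lines. The RNA counts thus hold no check of the FoxA2 label, and since the tag acts on protein they hold none of the degradation either. The labels do not say whether the 2 libraries of a group came from different cultures. The p-values therefore rest on the spread between such libraries, and that spread may be technical.

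Gkn1 (ENSMUSG00000030050) lies at chr6:87345653-87350915 and Gkn2 (ENSMUSG00000030049) at chr6:87373365-87379494 on mm10. Gkn3 (ENSMUSG00000030048), a further gastrokine, lies 3.8 kb beyond Gkn2 at chr6:87383319-87388935. Muc5b (ENSMUSG00000066108) lies on another chromosome, at chr7:141839059-141873089, in a cluster of gel-forming mucins. The 250 bases upstream of the start sites of the 3 gastrokine genes are shown because Gkn1 and Gkn2 had nearly the same order of levels across the groups while Gkn3, next to them, gave almost no reads. Sequences are from RefSeq on GRCm38.p6, the assembly of mm10, written 5′ to 3′ on each gene's own strand. Capitals mark matches to a pair of motif families on either strand. The motif of GATA factors was searched as AGATAA with TGATAA being its other form. The forkhead motif was searched as TGTTTAC with TATTTAC being its second form, TGTTTGC being its next form, TATTTGC being its last form.
Gkn1, chr6:87350916-87351165, minus strand: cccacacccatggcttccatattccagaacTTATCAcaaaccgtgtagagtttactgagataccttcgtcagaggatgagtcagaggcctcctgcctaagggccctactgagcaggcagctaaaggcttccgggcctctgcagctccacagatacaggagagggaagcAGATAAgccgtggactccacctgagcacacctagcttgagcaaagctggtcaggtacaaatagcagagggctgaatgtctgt
Gkn2, chr6:87373115-87373364, plus strand: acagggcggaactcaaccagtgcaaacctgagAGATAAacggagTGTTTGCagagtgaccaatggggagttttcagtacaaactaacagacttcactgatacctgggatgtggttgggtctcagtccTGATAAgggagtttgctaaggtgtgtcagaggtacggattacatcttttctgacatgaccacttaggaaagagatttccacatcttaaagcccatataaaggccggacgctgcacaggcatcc
Gkn3, chr6:87388936-87389185, minus strand: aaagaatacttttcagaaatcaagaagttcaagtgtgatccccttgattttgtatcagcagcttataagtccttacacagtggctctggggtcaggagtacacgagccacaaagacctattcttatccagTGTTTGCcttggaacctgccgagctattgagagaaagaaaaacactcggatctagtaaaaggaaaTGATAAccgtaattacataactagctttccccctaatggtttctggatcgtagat
The Gkn1 window held 2 GATA matches, which began 220 and 82 bases before the start site. The Gkn2 window also held 2, at 218 and 123 bases, and 1 forkhead match at 206 bases. The window of the near-silent Gkn3 held 1 match of each kind, at 55 bases (GATA) and 120 bases (forkhead). No window held ACAAT, the core letters of a SOX pattern, on either strand. Among 32851 promoter windows of the same length, 16.6% held at least 1 GATA match, 2.72% held 2 or more, 11.9% held a forkhead match and 27.7% held ACAAT. No patterns overlapped in these windows. A match is only a match of letters, and CUT&RUN for these factors was not analysed here.

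Gkn1 and Gkn2 had no read in any of the 8 FoxA2-mutant libraries, which together held 229 M gene reads. Muc5b had 1 read among them. In the unmutated Gata6-FKBP line at 0 h, Gkn1 stood at 20.7 and 20.2 CPM (353 and 315 reads) and Gkn2 at 69.5 and 76.6 CPM. In the unmutated Sox17-FKBP line at 0 h, Gkn1 stood at 131 and 127 CPM (3733 and 5328 reads) and Gkn2 at 466 and 472 CPM. Counting 3 reads over the mutant group as the floor, Gkn1 was at least 301-fold lower in the Gata6-FKBP mutant and at least 3162-fold lower in the Sox17-FKBP mutant. The bounds for Gkn2 were at least 1075-fold and at least 11493-fold lower. At 48 h of Sox17 degradation, where the unmutated cells were richest among the times with a mutant, Gkn1 was at least 19121-fold and Gkn2 at least 65526-fold lower in the mutant. These values are a description, since loss in the mutants chose the genes, and floors cover counting error only. In bulk RNA, fewer expressing cells and less RNA per cell cannot be told apart.

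Muc5b had few reads to lose. In the Sox17-FKBP line it gave 11 and 10 reads in the unmutated 0 h libraries (0.39 and 0.24 CPM) and none in the mutant, at least 7.65-fold lower. At 48 h of dTAGV1 it gave 87 and 131 reads without the mutation against 1 and 0 with it, a ratio of 0.00288 with a 95% counting interval from 7.27e-05 to 0.0162. In the Gata6-FKBP line at 0 h both groups lay at or under 3 reads, and no fold is given. At 48 h of dTAGV1 that line gave 6 and 2 reads without the mutation and none with it, at least 2.83-fold lower. FoxA2 mutation lowered 23.7% of 14625 tested genes in the Gata6-FKBP line and 24.6% in the Sox17-FKBP line at 0 h, and 31.3% and 26.9% at 48 h. In either direction the shares were 48.3%, 50.6%, 63.5% and 55.6% in the same order (edgeR quasi-likelihood test, Benjamini-Hochberg adjusted p under 0.05).

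A complete absence of reads was rare among genes that the Sox17-FKBP cells expressed at these levels. In a count chosen after the data were seen, Gkn1 and Gkn2 were the 2 genes without a read in the 8 mutant libraries among 4356 genes that averaged at least 50 CPM at 96 h of Sox17 degradation. From 5 CPM the set grew to 6 of 9537 genes, adding Clps, Ramp1, Slit3 and Tff1. From 1 CPM it grew to 16 of 11400. These genes were singled out after their values were seen. Loss in the mutants and a rise with Sox17 degradation had already chosen the members, so the count gives no separate support for them.

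All 3 genes rose during Sox17 degradation, in steps that continued to 72 or 96 h. Every time was compared with the 0 h cells in DMSO. No later DMSO group and no parental cells with dTAGV1 were among the groups. Loss of the factor, the compound itself and time in culture therefore cannot be told apart. Gkn1 averaged 129 CPM at 0 h, 177 at 6 h, 439 at 24 h, 769 at 48 h, 1204 at 72 h and 1233 at 96 h. The libraries at 72 h (1227 and 1180 CPM) and 96 h (1195 and 1271 CPM) overlapped, whereas every earlier step left a gap between the groups. Gkn2 averaged 469 CPM at 0 h, 617 at 6 h, 1469 at 24 h, 2635 at 48 h, 3537 at 72 h and 3472 at 96 h, again with overlap between the last 2 times. At 96 h, Gkn2 alone took 0.35% of all gene reads. Muc5b averaged 0.31 CPM at 0 h, 0.38 at 6 h, 1.43 at 24 h, 4.61 at 48 h, 9.13 at 72 h and 13.8 at 96 h, and its libraries at 72 h (10.01 and 8.25 CPM) and 96 h (12.4 and 15.1 CPM) did not overlap.

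The fitted log2 change of Gkn1 was 0.45 ± 0.12 (SE) at 6 h, 1.77 ± 0.12 at 24 h and 3.26 ± 0.12 at 96 h. That of Gkn2 was 0.39 ± 0.11 at 6 h, 1.65 ± 0.11 at 24 h and 2.89 ± 0.11 at 96 h. Muc5b changed by 0.33 ± 0.60 at 6 h, where its groups overlapped, 2.24 ± 0.47 at 24 h and 5.49 ± 0.38 at 96 h. With reads outside genes as a covariate, the 6 h values were 0.28 for Gkn1, 0.25 for Gkn2 and 0.00027 for Muc5b. No test is attached, because the rise with Sox17 loss chose the genes. Over all tested genes, 0.991%, 17.4%, 16.3%, 21.2% and 23.3% were called higher at 6, 24, 48, 72 and 96 h, and 1.74%, 30.4%, 30.9%, 36.1% and 40.5% in either direction. In the FoxA2 mutant of this line, 48 h of dTAGV1 left Gkn1 and Gkn2 at 0 reads and Muc5b at 1 read, while 2.76% of genes were called in either direction.

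**Figure D1:**
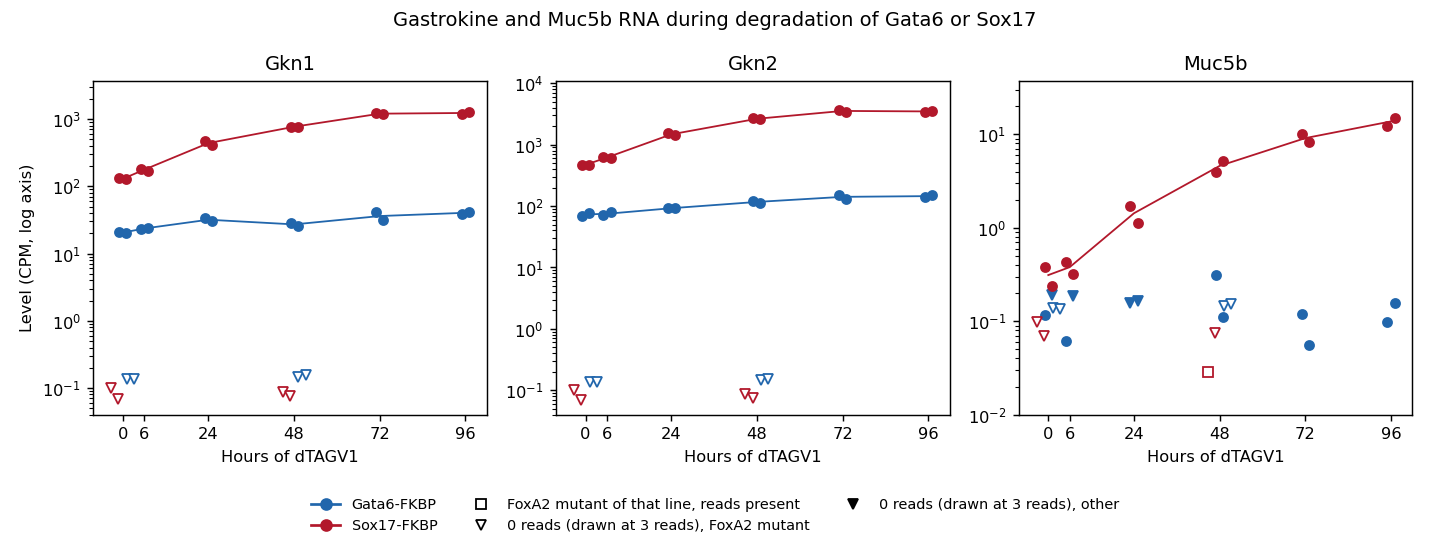
Levels of Gkn1, Gkn2 and Muc5b (CPM, log axis) against hours of dTAGV1, with 1 point per library and lines through group means where every mean is above 0. Open symbols are FoxA2 mutants, and triangles mark libraries with 0 reads, drawn at the level of 3 reads. Gkn1 and Gkn2 rose about in parallel in the Sox17-FKBP line, stayed within 20.2 to 42.2 and 69.5 to 151 CPM in the Gata6-FKBP line, and had no read in the mutants.

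Across the 20 groups, the order of levels was led by the 6 Sox17-FKBP groups without the mutation for all 3 genes. For Gkn1 the next place was held by 96 h of Gata6 degradation (40.4 CPM), whose libraries overlapped those of BMP4 at 72 h (38.4 CPM). Those in turn overlapped 72 h of Gata6 degradation (36.1 CPM), and that group overlapped the 24 h one (31.8 CPM). At the lower end of the unmutated groups stood the untreated Gata6-FKBP line (20.5 CPM), BMP4 at 24 h (17.8 CPM) and N2B27 at 0 h (15.8 CPM), each overlapping the next, and then the parental cells (12.9 CPM) without overlap. Gkn2 also ended with the parental cells (40.01 CPM), whose libraries overlapped those of BMP4 at 24 h (52.4 CPM). For Muc5b, no neighbours in the order below 24 h of Sox17 degradation could be separated: group means ran from 0.38 CPM down to 0 and neighbouring groups overlapped.

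Both gastrokines also rose, by less, during Gata6 degradation, where the same limit of a 0 h control holds. The selection did not use this contrast, although its 0 h and 48 h groups were references for the mutants. The 0 h libraries held Gkn1 at 20.7 and 20.2 CPM, and the 96 h libraries at 38.6 and 42.2 CPM. Gkn2 moved from 69.5 and 76.6 CPM to 139 and 151 CPM. Both genes were thus higher in both 96 h libraries than in either control, by a log2 change of 0.98 ± 0.13 for Gkn1 (adjusted p = 2.4e-06) and 0.99 ± 0.11 for Gkn2 (adjusted p = 1.6e-07; edgeR quasi-likelihood test). At this time 18.2% of tested genes were called higher and 40.3% in either direction.

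The earlier times share the same 0 h controls. At 6 h, Gkn1 changed by 0.20 ± 0.14 (adjusted p = 0.33) and Gkn2 by 0.04 ± 0.11 (adjusted p = 0.88), so neither passed, where 13.9% of all genes did. At 24 h both rose, Gkn1 by 0.64 ± 0.13 (adjusted p = 0.0020) and Gkn2 by 0.34 ± 0.11 (adjusted p = 0.035), among 7.11% of genes called higher and 21.4% in either direction. At 48 h the rise was 0.41 ± 0.14 for Gkn1 (adjusted p = 0.020) and 0.68 ± 0.11 for Gkn2 (adjusted p = 3.1e-05), with 18.2% of genes called higher and 40.1% in either direction. At 72 h it was 0.82 ± 0.13 for Gkn1 (adjusted p = 2.7e-05) and 0.95 ± 0.11 for Gkn2 (adjusted p = 2.6e-07), with 17.8% called higher and 39.6% in either direction.

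The weaker of these calls rested on single libraries. Without the first 0 h library, Gkn2 at 24 h gave an adjusted p of 0.34, and without either 24 h library 0.12. Gkn1 at 48 h gave 0.060, 0.092 and 0.13 without the first 0 h, the second 0 h and the first 48 h library. Reads outside genes per 100 gene reads also moved with time, from 5.66 and 6.11 at 0 h to 7.92 and 8.10 at 96 h. With that quantity as a covariate, Gkn1 changed by 0.92 at 48 h, 1.26 at 72 h and 1.54 at 96 h, Gkn2 by 1.10 at 48 h, and Gkn2 at 24 h by 0.17 (adjusted p = 0.10). The slope of this covariate came from differences between the 2 libraries of a group, so the values from 48 h on are extrapolations.

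Muc5b did not take part at a measurable level. It gave 2 and 0 reads at 0 h of the Gata6 course, 6 and 2 at 48 h, and 2 and 3 at 96 h. The ratio to 0 h was 3.51 at 48 h, with a 95% counting interval from 0.70 to 33.9, and 2.06 at 96 h, with an interval from 0.34 to 21.6. The adjusted p was 0.29 at 48 h and 0.61 at 96 h, and a change was not detectable at this depth. The fitted log2 changes of 1.72 and 0.98 ran from 0.82 to 5.36 and from 0.10 to 4.62 when 1 library was left out, with the highest values without the first 0 h library, which leaves 0 reads at 0 h, and the lowest without the first 48 h and the second 0 h library. In the FoxA2 mutant of the Gata6-FKBP line all 3 genes had 0 reads at 0 h and at 48 h of dTAGV1, where 0.239% of genes were called.

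**Figure D2:**
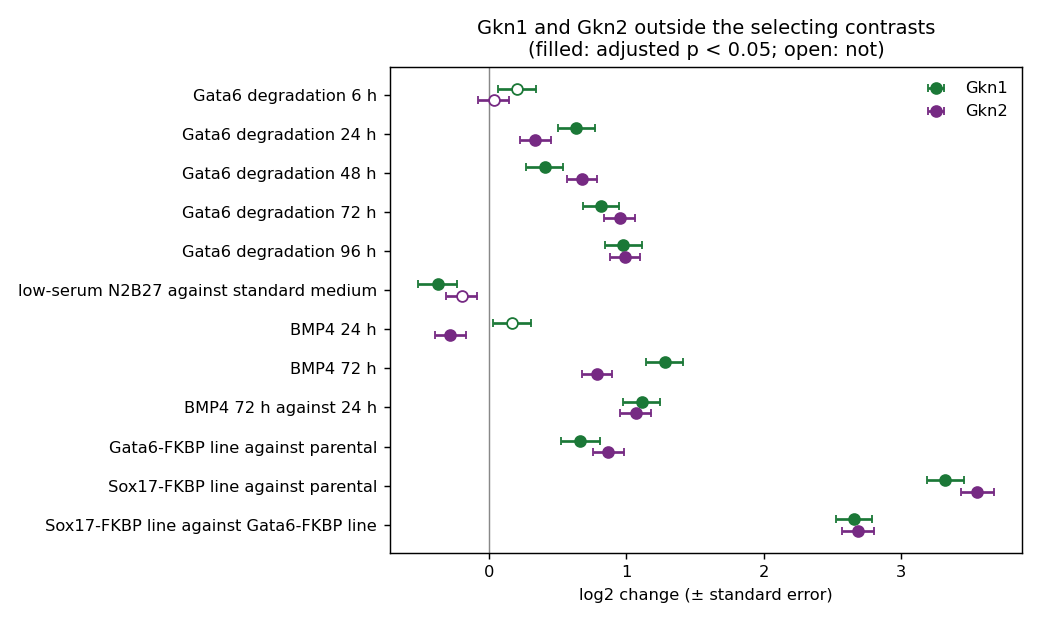
Log2 changes of Gkn1 and Gkn2 (horizontal axis) with standard errors in 12 contrasts that did not choose the genes, with filled points for an adjusted p under 0.05. Many of these share 0 h or 48 h groups with the contrasts that did. The Sox17-FKBP line against parental cells had the highest values (3.32 and 3.55), and low-serum N2B27 the lowest Gkn1 value (-0.37).

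BMP4, a ligand known to turn XEN cells toward visceral endoderm, was added in serum-free medium, and both gastrokines stood higher after 72 h of it than at 0 h. The 0 h cells had 1% FBS and no group without BMP4 at 24 or 72 h was analysed here, so BMP4, serum removal and time in culture cannot be told apart. Gkn1 stood at 15.9 and 15.8 CPM in N2B27 at 0 h, at 15.2 and 20.5 CPM after 24 h and at 39.5 and 37.3 CPM after 72 h. Gkn2 stood at 61.9 and 65.2 CPM, then 46.2 and 58.5 CPM, then 112 and 108 CPM. The 24 h libraries differed from each other by more than those of the other groups of the BMP4 series, and for Gkn1 they spanned the 0 h values. By 72 h, Gkn1 had risen by a log2 change of 1.28 ± 0.13 (adjusted p = 2.1e-08) and Gkn2 by 0.79 ± 0.11 (adjusted p = 1.8e-06), with 31.6% of all genes called higher and 62.8% in either direction. From 24 to 72 h, Gkn1 rose by 1.11 ± 0.13 (adjusted p = 6.5e-08) and Gkn2 by 1.07 ± 0.11 (adjusted p = 9.5e-09), with 35.3% of genes called higher and 70.3% in either direction.

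At 24 h of BMP4, Gkn1 changed by 0.17 ± 0.14 (adjusted p = 0.36) and Gkn2 fell by 0.28 on the log2 scale (SE 0.11, adjusted p = 0.049), with 22.2% of genes called lower and 43.6% in either direction. The 24 h libraries set these calls. Without the first, Gkn1 came to 0.37 (adjusted p = 0.044) and Gkn2 to -0.12 (adjusted p = 0.45), and without the second, Gkn1 came to -0.07. The Gkn2 call was also lost without either N2B27 0 h library (adjusted p = 0.088 and 0.20). The 72 h libraries held 10.3 and 10.4 reads outside genes per 100 gene reads, against 5.64 and 5.69 in N2B27 at 0 h and 4.51 and 5.32 at 24 h. With that quantity as a covariate, the change at 72 h was 2.38 for Gkn1 and 1.70 for Gkn2. The slope came from differences between the 2 libraries of a group. Those were far smaller than the gap between 72 h and 0 h, so these values are extrapolations. The part of reads outside genes in the rise was not tested beyond this fit.

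In low-serum N2B27 medium, Gkn1 stood slightly lower than in the Gata6-FKBP line in standard medium. Gkn1 fell by 0.37 on the log2 scale (SE 0.14, adjusted p = 0.039), among 21.4% of genes called lower and 41.5% in either direction, and Gkn2 changed by -0.20 ± 0.11 (adjusted p = 0.17). Leaving out any of the 4 libraries ended the Gkn1 call, with adjusted p from 0.081 to 0.15. The comparison rests on the genotype label of the N2B27 samples, whose titles name XEN cells and no tag. Against parental cells (12.9 CPM), the N2B27 level of Gkn1 (15.8 CPM) was the higher one. Muc5b gave at most 3 reads in any library of the BMP4 series, and no fold is given.

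**Figure D3:**
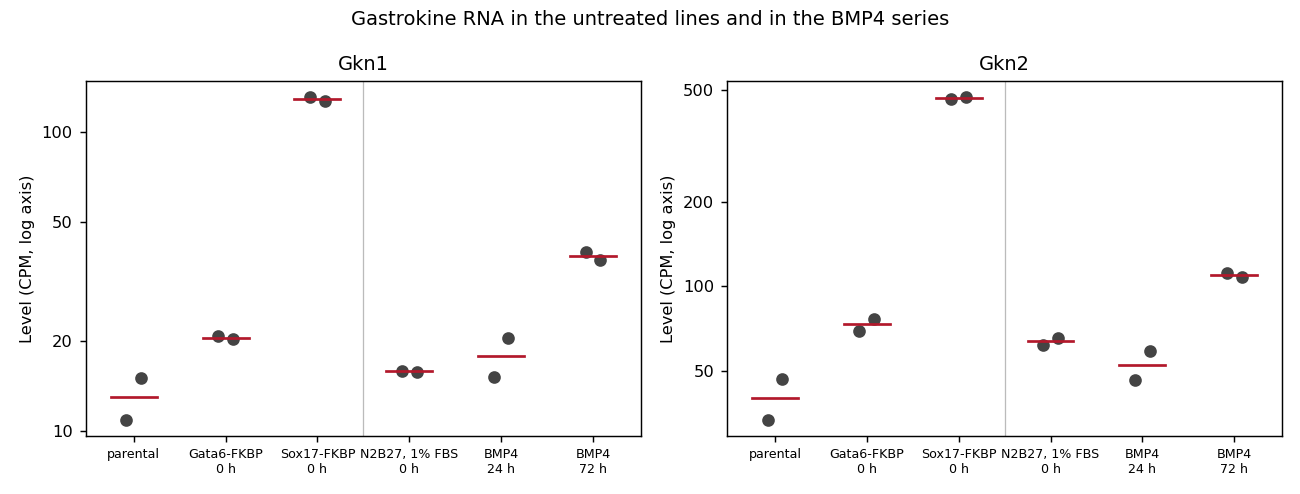
Levels of Gkn1 and Gkn2 (CPM, log axis) in the untreated lines (left of the grey line) and in the BMP4 series, with 1 point per library and red bars for the mean of 2. The Sox17-FKBP line stands above all others, at 129 CPM for Gkn1 and 469 CPM for Gkn2, and both genes are higher at 72 h of BMP4 than at 0 h.

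The lines differed before any degradation. The 0 h groups of both tagged lines were references in the contrasts that chose the genes, so these tests are not independent of that choice. The parental cells held Gkn1 at 10.9 and 15.0 CPM, the Gata6-FKBP line at 20.7 and 20.2 CPM and the Sox17-FKBP line at 131 and 127 CPM, with no overlap between lines. Gkn2 ran in the same order, at 33.4 and 46.6 CPM, 69.5 and 76.6 CPM, and 466 and 472 CPM. The untreated Sox17-FKBP line exceeded the untreated Gata6-FKBP line by a log2 difference of 2.66 ± 0.13 for Gkn1 (adjusted p = 2.9e-14) and 2.68 ± 0.12 for Gkn2 (adjusted p = 2.0e-15), where 20.6% of genes were called higher and 48.0% in either direction. Against the parental cells, the Sox17-FKBP line was higher by 3.32 ± 0.13 for Gkn1 (adjusted p = 5.1e-16) and 3.55 ± 0.12 for Gkn2 (adjusted p = 1.9e-17), with 25.8% of genes called higher and 57.1% in either direction. The Gata6-FKBP line exceeded the parental cells by 0.67 ± 0.14 for Gkn1 (adjusted p = 0.00037) and 0.87 ± 0.11 for Gkn2 (adjusted p = 9.6e-07), with 23.4% called higher and 47.8% in either direction. The comparisons with parental cells share those 2 libraries, which also hold the fibroblast genes given above, and the part of that RNA in the differences was not tested.

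Muc5b gave 2 and 8 reads in the parental libraries, 2 and 0 in the untreated Gata6-FKBP line and 11 and 10 in the untreated Sox17-FKBP line. The ratio of the Sox17-FKBP to the Gata6-FKBP line was 4.87, with a 95% counting interval from 1.19 to 42.8, and did not pass (adjusted p = 0.092). Without the filter on low counts it passed (adjusted p = 0.034). Its fitted log2 difference of 2.198 became 1.32 without the second Gata6-FKBP 0 h library, and 5.83 without the first, which leaves that group at 0 reads and the value dependent on the prior count. Against the parental cells the Sox17-FKBP line differed by 0.60 ± 0.70 (adjusted p = 0.48).

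Of the tagged lines, the one with the higher gastrokine levels had less Sox17 RNA. It averaged 265 CPM in the untreated Sox17-FKBP line, 525 CPM in the untreated Gata6-FKBP line and 385 CPM in parental cells. Between the tagged lines the difference was -0.99 ± 0.07 on the log2 scale (adjusted p = 9.3e-12). Parental cells had less Sox17 RNA than the Gata6-FKBP line, and also less Gkn1 (12.9 against 20.5 CPM) and Gkn2 (40.01 against 73.0 CPM). In the BMP4 series Sox17 RNA averaged 429 CPM at 0 h, 355 CPM at 24 h and 262 CPM at 72 h, and had fallen by 0.71 at 72 h (adjusted p = 5.6e-09). At 96 h of Sox17 degradation it averaged 169 CPM, and had fallen by 0.65 (adjusted p = 5.5e-08). During Gata6 degradation, in which the gastrokines rose, Sox17 averaged 605 CPM at 96 h, a rise of 0.21 ± 0.07 (adjusted p = 0.028). Foxa2 RNA lay within 77.4 to 146 CPM over all group means. The relation of Sox17 or Foxa2 RNA to the gastrokine levels was not tested.

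Gkn1 and Gkn2 kept a narrow ratio while their levels changed. In the 32 libraries with reads, Gkn2 gave 2.76 to 4.31 reads per Gkn1 read, a ratio that does not account for transcript length. In the Sox17-FKBP line the ratio was 3.56 and 3.71 at 0 h, then 2.95 and 2.93 at 72 h and 2.83 and 2.80 at 96 h. In the Gata6-FKBP line it was highest at 48 h (4.29 and 4.31) and lowest at 24 h (2.76 and 3.03). Over the 20 group means of log2 CPM the Pearson correlation of Gkn1 with Gkn2 was 0.998. Over the 10 groups with neither Sox17 degradation nor FoxA2 mutation, and without the Sox17-FKBP 0 h group, it was 0.938. The corresponding values with Muc5b were 0.782 and 0.077 for Gkn1 and 0.753 and 0.188 for Gkn2. The groups share controls and a cell line, the mutants weigh heavily in these values, and they are given as descriptions.

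The genes most like Gkn1 over the 20 groups, among 10780 with at least 5 CPM in a group, were Gkn2, Tmem108, Ifngr2 (a receptor chain for interferon gamma), Plce1 (a phospholipase C) and Rab37 (a small GTPase of secretory vesicles), with r from 0.998 to 0.975. Those most like Gkn2 were Gkn1, Tmem108, Itga6 (the integrin alpha 6 subunit, a laminin receptor), Ifngr2 and Itgb5 (the integrin beta 5 subunit), with r from 0.998 to 0.969. Tmem108 averaged 11.1 CPM in the untreated Sox17-FKBP line, 19.4 CPM at 96 h of dTAGV1 and 0.074 CPM in its FoxA2 mutant. Itga6 went from 695 to 1334 CPM and stood at 11.1 CPM in the mutant. Neither gene lost every read.

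These neighbours in pattern depended on the groups used. By Spearman rank correlation, and over the 16 groups without FoxA2 mutation (chosen after the data were seen), 1 of the 5 genes was shared with the list for each gastrokine, and each time it was the other gastrokine. Over the 10 groups with neither the Sox17-FKBP line nor FoxA2 mutation, Gkn2 still ranked first for Gkn1, but Gkn1 ranked 22 for Gkn2. For Muc5b the nearest genes were Rbfox2 (a splicing factor), Anpep (an aminopeptidase of brush borders), Orai2 (a calcium channel), the membrane mucin Muc3a and Serinc3, with r from 0.949 to 0.934. None of those 5 returned by rank correlation or over the 10 groups, and 2 returned over the 16 groups.

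Of 14 genes counted within 300 kb of Gkn1 and Gkn2, 9 passed the filter, both gastrokines included. Antxr1, an anthrax toxin receptor that binds extracellular matrix and lies 9.8 kb from Gkn1, shared part of the pattern. It averaged 20.01 CPM in the untreated Sox17-FKBP line, 51.8 CPM at 96 h of dTAGV1, 0.017 CPM (1 read) in the FoxA2 mutant of that line and 0.63 CPM in the FoxA2 mutant of the Gata6-FKBP line, against 14.9 CPM unmutated. Its log2 change was 1.37 ± 0.13 at 96 h of Sox17 degradation (adjusted p = 2.7e-09) and 0.91 ± 0.15 at 96 h of Gata6 degradation (adjusted p = 1.2e-05), but -0.12 ± 0.15 at 72 h of BMP4 (adjusted p = 0.51). Bmp10, a BMP ligand of the heart, lies 49.5 kb from Gkn2. It averaged 2.32 CPM in the untreated Sox17-FKBP line, had no read in the untreated Gata6-FKBP line or in any FoxA2 mutant, and changed by 0.69 ± 0.28 at 96 h of Sox17 degradation (adjusted p = 0.057).

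Arhgap25, 79 kb away, was low throughout: it averaged 0.076 CPM in the untreated Sox17-FKBP line and 0.43 CPM at 96 h, with no read in either mutant at 0 h, at least 1.87-fold lower in the Sox17-FKBP and at least 5.98-fold lower in the Gata6-FKBP line. The 4 other genes that passed the filter had reads in the mutant. Gfpt1, an enzyme of hexosamine synthesis 253.4 kb away, changed by 0.14 ± 0.11 at 96 h of Sox17 degradation (adjusted p = 0.34) and by -0.33 ± 0.11 in the FoxA2 mutant of that line (adjusted p = 0.015). Aplf, a DNA repair factor, changed by -0.10 ± 0.09 at 96 h (adjusted p = 0.45) and fell by 0.62 in the mutant (SE 0.09, adjusted p = 2.0e-06). D6Ertd527e rose at 96 h by 2.35 ± 0.55 (adjusted p = 0.0011), from 0.32 to 1.56 CPM, and changed by -0.24 ± 0.68 in the mutant (adjusted p = 0.80). Prokr1, a prokineticin receptor, fell by 2.12 in that mutant (SE 0.17, adjusted p = 1.8e-11) and changed by -0.27 ± 0.15 at 96 h (adjusted p = 0.17). Gkn3, the nearest gene to Gkn2, gave 6 reads over all 40 libraries.

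**Figure D4:**
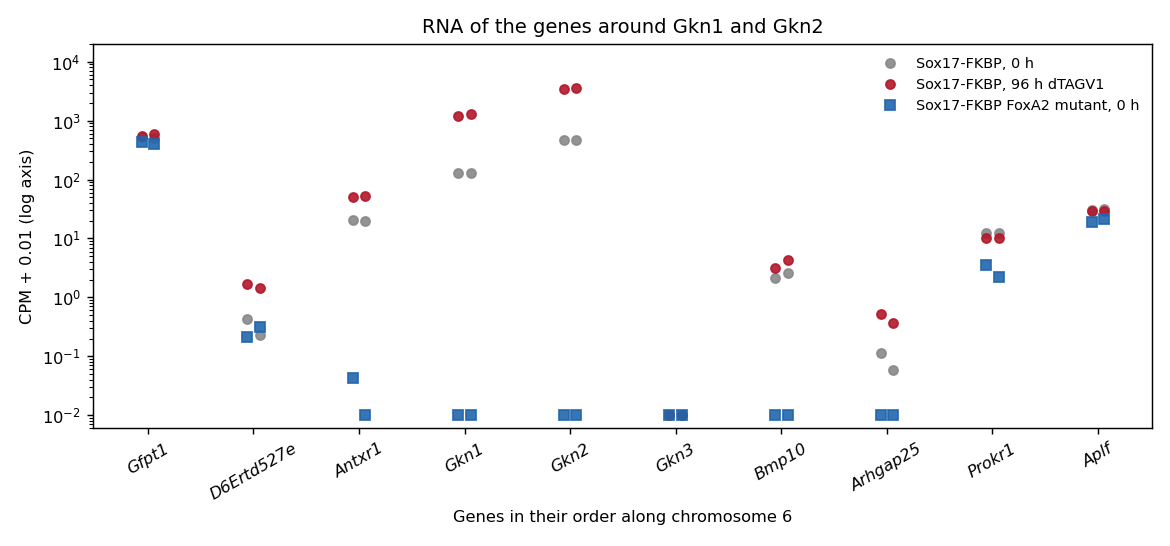
Levels of the genes within 300 kb of Gkn1 and Gkn2 that passed the filter, and of Gkn3, in gene order along the chromosome (vertical axis CPM + 0.01, log axis), with 2 libraries per group. Gkn1, Gkn2, Antxr1, Bmp10 and Arhgap25 stand at 0 or 1 read in the FoxA2 mutant of the Sox17-FKBP line. Arhgap25 was also near the floor at 0 h without the mutation. Gfpt1 and Aplf stay at 413 and 20.3 CPM in that mutant, and Gkn3 lies at the bottom in all 3 groups.

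Around Muc5b, 10 of 16 counted genes passed the filter, and 2 of the 3 other gel-forming mucins in its cluster rose with it under Sox17 degradation. Muc2, the main mucin of the intestine, lies 84.4 kb away and went from 0.25 CPM at 0 h to 6.67 CPM at 96 h, a log2 change of 4.68 ± 0.40 (adjusted p = 2.4e-10). Muc5ac, the surface mucin of the stomach, lies 19.8 kb away, had no read at 0 h and averaged 1.24 CPM at 96 h, at least 29.0-fold higher. Muc6, a gland mucin of the stomach, had at most 3 reads in both groups, but was at least 7.69-fold higher at 72 h of BMP4 (14 and 12 reads against 0 and 0). How reads were divided among these related genes is not given in the sources used here. Tollip, an adaptor of innate signalling 8.5 kb away on the other side, changed by 0.23 ± 0.07 (adjusted p = 0.012). Ap2a2, a subunit of a clathrin adaptor, changed by 0.01 ± 0.07 (adjusted p = 0.97).

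Muc2 also moved where Muc5b could not be measured. At 48 h of Gata6 degradation it rose by 3.18 ± 0.72 (adjusted p = 0.00079) and at 96 h by 2.48 ± 0.79 (adjusted p = 0.013), from 0.12 CPM to 0.71 CPM at 96 h. In the FoxA2 mutants it averaged 0.023 to 0.092 CPM.

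Of 10 tested genes in a list of other mucins, 6 were called higher and 1 lower at 96 h of Sox17 degradation, with a median log2 change of 2.48 against 0.06 over all genes, of which 23.3% were called higher. Low genes of the list had their highest means in that group (Muc2, Muc3a and Muc5ac among them) or at 72 h of BMP4 (Muc6 among them). Such genes may have passed the filter through the groups where they are counted as higher. Counts and medians of this list are therefore not independent of the filter. Muc13, a membrane mucin of the gut, went from 0.71 to 6.16 CPM, a change of 3.06 ± 0.26 (adjusted p = 4.6e-10). Muc3a went from 1.66 to 10.2 CPM, a change of 2.59 ± 0.21 (adjusted p = 3.0e-10), although Muc3a and Muc3 are related copies and the way the counting divided their reads is not given in the sources used here. At 72 h of BMP4, 6 of the 10 were higher and 0 lower, with a median of 1.61 against 0.00 and 31.6% of all genes called higher, and Muc13 reached 35.6 CPM, a change of 5.41 ± 0.26 (adjusted p = 6.3e-15). Muc3a was at or under 3 reads in both groups of that contrast. In the FoxA2 mutants at 48 h of dTAGV1, 6 were lower and 1 higher in each line, against 31.3% (Gata6-FKBP) and 26.9% (Sox17-FKBP) of all genes called lower. At 0 h, 2 of the 10 were lower and 1 higher in the Gata6-FKBP mutant, and 2 lower and 2 higher in the Sox17-FKBP mutant. Of all genes, 23.7% and 24.6% were called lower in these contrasts.

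Other genes of gastric epithelium were low. Of 20 listed, 19 were counted and 7 passed the filter. Their summed level over the list was 3.58 and 3.72 CPM in the untreated Sox17-FKBP libraries and 14.1 and 14.3 CPM at 96 h, where 5 of 7 were called higher and 0 lower, against 23.3% of all genes called higher. Tff1 went from 0.45 to 6.42 CPM, a change of 3.84 ± 0.46 (adjusted p = 2.6e-07), and had no read in any mutant. Tff1 and Muc5ac had their highest group means at 96 h of Sox17 degradation. Such low genes may have passed the filter through the group where they are counted. The count and the Tff1 test are therefore not independent of the filter. Tff2 (a further trefoil peptide), Atp4b (a subunit of the acid pump), Lipf (gastric lipase), Chia1 (an acidic chitinase), Anxa10 and Gkn3 each stayed under 0.1 CPM in every group, and Atp4a, the other subunit of the acid pump, reached at most 0.38 CPM. At 96 h of Gata6 degradation 1 of the 7 was higher and 0 lower, against 18.2% of all genes called higher. With FoxA2 mutation at 0 h, 1 of the 7 was higher and 2 lower in each line. At 48 h of dTAGV1, 1 was higher in each line, and 3 (Gata6-FKBP) and 4 (Sox17-FKBP) were lower. Of all genes, 23.7% and 24.6% were called lower at 0 h, and 31.3% and 26.9% at 48 h. Pgc, also on this list, had its highest group mean, 3.10 CPM, in the Gata6-FKBP mutant at 48 h of dTAGV1.

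Genes of mucus secretion and O-glycosylation gave a mixed picture. Of 21 tested, 6 were called higher and 1 lower at 96 h of Sox17 degradation (median 0.47 against 0.06 over all genes), where 23.3% of all genes were called higher and 17.2% lower. Gcnt3, an enzyme that branches mucin glycans, rose by 0.76 ± 0.13 (adjusted p = 3.3e-05), and averaged 33.0 CPM at 0 h and 0.63 CPM in the FoxA2 mutant. Fcgbp, a mucus protein, fell by 0.51 (SE 0.16, adjusted p = 0.012). Fcgbp averaged 32.4 CPM in the untreated Gata6-FKBP line and 0 CPM in its FoxA2 mutant, at least 476-fold lower. With FoxA2 mutation at 0 h, 6 of the 21 were higher and 5 lower in the Gata6-FKBP line. In the Sox17-FKBP line 8 were higher and 5 lower. At 48 h of dTAGV1 the counts were 3 and 10 (Gata6-FKBP) and 2 and 7 (Sox17-FKBP). Over all genes at 0 h, 24.6% and 26.0% were called higher and 23.7% and 24.6% lower. At 48 h those shares were 32.2% and 28.7% higher, and 31.3% and 26.9% lower. Of 4 tested genes with a BRICHOS domain other than gastrokines, 3 were higher and 0 lower at 96 h of Sox17 degradation, against 23.3% of all genes called higher. Itm2b, a membrane protein, rose by 0.86 ± 0.06 (adjusted p = 1.9e-11).

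Markers of visceral endoderm moved in some of the same contrasts. Of 19 tested, 12 were called higher and 2 lower at 96 h of Sox17 degradation, 12 and 3 at 72 h of BMP4, and 5 and 6 at 96 h of Gata6 degradation. Over all genes the shares called higher were 23.3%, 31.6% and 18.2% in the same order, and those called lower 17.2%, 31.2% and 22.1%. The summed level of the 24 listed genes was 2992 and 3015 CPM in the untreated Sox17-FKBP line, 4968 and 5239 CPM at 96 h of dTAGV1, and 3516 and 3778 CPM in the FoxA2 mutant at 0 h. Krt8, Krt18, Cubn and Lrp2 weigh most in that sum, with highest group means of 2655, 1290, 2119 and 2100 CPM. No other gene of the list averaged above 312 CPM (Rbp4) in any group. Cubn and Lrp2 are also among the listed XEN genes. Single genes of the list did not follow that sum: in the Sox17-FKBP line at 0 h, 6 were higher and 8 lower with the mutation, with a median log2 change of -0.67 against 0.02 over all genes. At 48 h of dTAGV1, 6 were higher and 10 lower with the mutation, with a median of -1.49. The part of these markers in the gastrokine levels was not tested.

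**Figure D5:**
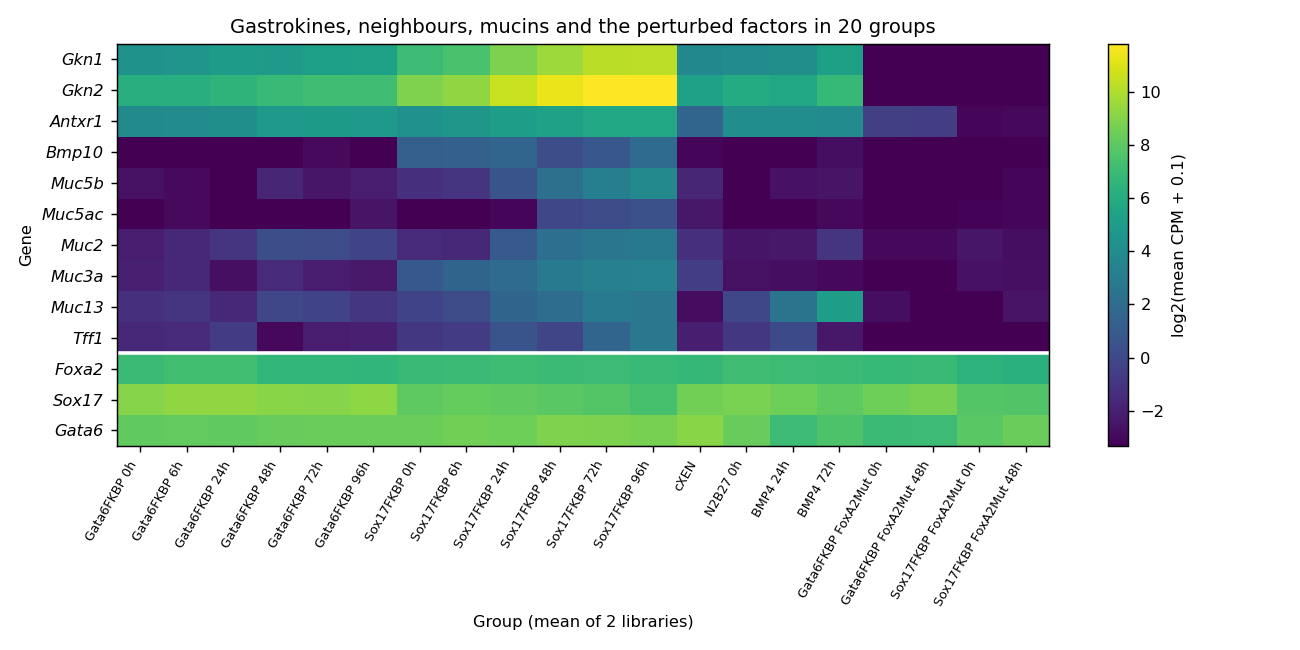
Group means, as log2(mean CPM + 0.1), of the gastrokines, neighbouring genes, mucins and Tff1 (above the white line) and of the 3 perturbed factors (below it) in the 20 groups. Gkn1 and Gkn2 are highest in the Sox17-FKBP groups and at 0 in the 4 FoxA2-mutant groups, Muc13 peaks at 72 h of BMP4 (35.6 CPM), and Foxa2 RNA runs from 77.4 to 146 CPM.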

How the data were processed

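The RNA libraries of the mouse cXEN series, 40 in number, were used, and the 14 ATAC-seq and CUT&RUN samples were not analysed here. The deposited values are raw counts per Ensembl gene. Per the submitters' processing notes, reads were aligned with HISAT2 to mm10 and counted with HTSeq. Versions, annotation release and strand setting are not given in the sources used here, so reads of overlapping and antisense genes cannot be told apart. Totals for reads outside genes were kept apart from genes. Libraries held 16.2 to 42.5 M gene reads.

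A single quasi-likelihood model (edgeR 4.0.16, limma 3.58.1, R 4.3.3) took in the 40 libraries together, each group having its own mean. It used TMM scaling and the default filter, which kept 14625 of 47729 genes, with 20 residual degrees of freedom. Genes with few reads may have passed this filter only through groups where they are high, which can raise list counts there. Calls have a Benjamini-Hochberg adjusted p under 0.05 over all tested genes, and standard errors are the log2 change over the root of F. Floors are 3 reads over a group, and with 1 to 3 reads an exact 95% counting interval is given. Floors and intervals cover counting error only. Of 23 comparisons, 13 were tested for the members and 10 had served to choose them. Many of the 13 share groups with the 10 and are not independent of the choice. The members, gene lists and naming rule were chosen with earlier results of these data known. The text names the 3 members, Foxa2, Sox17 and Gata6, the 5 genes most like each member, neighbours within 300 kb that passed the filter, and listed genes with at least 1 CPM in a group. Genes named for low levels (Gkn3, Tff2, Atp4a, Atp4b, Lipf, Chia1, Anxa10) fall outside that rule and were chosen after their values were seen. Fitted changes of the members and counts of called genes were recomputed with median-of-ratios scaling, without the filter, with DESeq2 1.42.0, only the libraries compared, a replicate block, reads outside genes as a covariate, and without each library in turn. Bounds against groups with no read were not recomputed, nor were fitted changes of other genes, and list counts were recomputed under median-of-ratios scaling only. The procedure was tested on simulated data.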

Additional observations from a re-analysis of the deposited data

How the results depend on the processing

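For Gkn1, Gkn2 and Muc5b, 29 tested changes were recomputed under the alternatives, giving 290 values, of which 263 kept their direction and side of the threshold, 17 lost the call, 3 gained one and 7 changed sign. Median-of-ratios scaling and DESeq2 ended the call of Gkn1 in low-serum N2B27 (both -0.34, adjusted p = 0.066 and 0.053). Without a filter on low counts, Muc5b passed between the untreated tagged lines (2.22). With reads outside genes as a covariate, Gkn1 and Gkn2 at 6 h of Gata6 degradation (-0.0073 and -0.13) and Gkn1 at 24 h of BMP4 (-0.10) changed sign without a call, Gkn2 at 24 h of Gata6 degradation lost its call (0.17), and Gkn2 in low-serum N2B27 gained one (-0.25). With only the libraries compared, Gkn2 at 24 h of BMP4 lost its call (-0.27). The cause of these changes was not tested.

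Leaving out 1 library at a time, the log2 change ran from -0.042 to 0.12 for Gkn2 at 6 h and from 0.27 to 0.41 at 24 h of Gata6 degradation, from 0.34 to 0.47 for Gkn1 at 48 h, from -0.39 to -0.35 for Gkn1 in low-serum N2B27, from -0.069 to 0.37 for Gkn1 and from -0.47 to -0.12 for Gkn2 at 24 h of BMP4, and from -0.13 to 1.93 for Muc5b between the Sox17-FKBP line and parental cells. For Muc5b at 6 h of Sox17 degradation it ran from -0.019 (without the second Sox17-FKBP 0 h library) to 0.66. A lone library was assumed to vary like the others.

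Replicate numbers share only a number: over tested genes, replicate differences of the groups compared correlated from -0.09 to 0.10. The replicate block changed no call of these genes (Gkn1 at 96 h of Gata6 degradation 0.98, Gkn2 at 72 h of BMP4 0.79) and moved the counts of called genes by under 1.5 times.

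Counts of called genes moved by over 1.5 times in some fits. At 6 h of Gata6 degradation, 2027 became 1096 with the covariate and 1078 with only the libraries compared. At 24 and 72 h of BMP4, 6371 became 352 with only the libraries compared, and 9185 became 2622 with the covariate, as 10275 between these times became 1524. At 6 h of Sox17 degradation 255 became 396 without the filter, 455 with the covariate, 393 with DESeq2 and 1364 with only the libraries compared, and at 24 and 48 h 4451 and 4513 became 648 and 6957 in the last of these fits. In the Gata6-FKBP mutant at 48 h, 35 became 86 without the filter, 121 with the covariate, 119 with DESeq2 and 0 with only the libraries compared in edgeR (809 genes had an unadjusted p under 0.05). In the Sox17-FKBP mutant, 403 became 698 with the covariate and 1064 with only the libraries compared. With 1 library fewer, 2027 became 14 (without the first Gata6-FKBP 0 h library), 80 and 809 (without either 6 h library), and 3131 at 24 h became 319 (without that 0 h library), 1306 and 1512 (without either 24 h library). Without the same 0 h library, 6069 in low-serum N2B27 became 3920. Without the second BMP4 24 h library, 6371 became 2314. At 6 h of Sox17 degradation 255 became 71 to 89 without any 1 of the 4 libraries, and at 24 h 4451 became 2633 (without the first 0 h library) and 2029 (without the first 24 h library). In the Gata6-FKBP mutant 35 became 4 and 1 (without either 0 h library) and 5 (without the second 48 h library), and in the Sox17-FKBP mutant 403 became 161 to 225 without any 1 of the 4.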
